A study of Mus musculus with 69 samples.

Results

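Npc1-edited mouse macrophages of day 13 were compared with Rosa26-edited macrophages of the same day. The members were the 5 libraries labelled as Npc1 knockout and the 5 labelled as Rosa26 knockout at the late time, so 10 of the 69 libraries of the study. All groups were wild-type bone marrow-derived macrophages (BMDMs), made by growing marrow cells in M-CSF, the growth factor of macrophages, at 50 ng/mL. They were harvested on day 7, frozen, thawed, given Cas9 complexed with a guide RNA, and cultured until day 4 or day 13 after editing. The sample labels give these times in hours and the study's design text in days, and days are used here. Each biological replicate pooled the bones of 6 mice. Besides the pair compared, values come from Npc1 cells of day 4 (n = 4), Rosa26 cells of day 4 (n = 5) and the Pik3c3 and Atp6v1a knockouts of day 13 (n = 5 each). Pik3c3 encodes the lipid kinase of autophagy and endosomal traffic, and Atp6v1a encodes the catalytic subunit of the lysosomal proton pump. The control cells also received Cas9 and a guide, directed at Rosa26, a locus used as a neutral target. The guide sequences, the share of edited cells and the protein levels are not given in the sources used here, so each group is treated as a mixed population of edited and possibly unedited cells.

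NPC1 is a membrane protein of late endosomes and lysosomes that passes cholesterol, released from internalised lipoproteins, out of the lysosome towards other membranes. When little cholesterol reaches the endoplasmic reticulum, the transcription factor SREBP2 (gene Srebf2) is cut free, enters the nucleus and switches on the enzymes of sterol synthesis and genes of sterol uptake. When sterols and their oxidised forms are plentiful, INSIG proteins hold SREBP2 back, and the nuclear receptors LXR switch on cholesterol exporters such as ABCA1. Loss of NPC1 causes Niemann-Pick disease type C, in which cholesterol is stored in lysosomes of many cells, macrophages included.

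Transcripts were counted from their 3′ ends with unique molecular identifiers. Totals lay between 3299665 and 4554952 estimated counts in the Npc1 libraries and between 2194566 and 3825035 in the Rosa26 libraries. Levels are given as CPM, a gene's count scaled by the total of its library, in the order of replicates 1 to 5, and a 3′ tag level does not depend on message length. Changes are log2 fold changes ± SE of Npc1 over Rosa26 cells with library protocol as a term in the fit. P-values come from the quasi-likelihood test of edgeR and are adjusted by the Benjamini-Hochberg method over all genes tested. Called means that the adjusted p lay under 0.05. The labels say that replicates are biological. The p-values rest on a spread between cultures that was estimated in one fit over all 69 libraries, not over these 10 alone. Library protocol was uneven: Npc1 replicates 1 and 4 were made with the Regular protocol and 2, 3 and 5 with the Low-input protocol, whereas Rosa26 replicates 1 to 4 were Regular and only replicate 5 was Low-input. Values within each protocol are therefore given beside the main ones, and for Low-input they set 3 libraries against a single Rosa26 library, whose spread is assumed to be that of other groups. The macrophage markers were present in all 10 libraries, with Adgre1 (F4/80) at 836 to 1930 CPM, Csf1r at 626 to 1210 CPM and Lyz2 at 5610 to 10200 CPM. The lowest of these markers were Fcgr1 at 29.6 to 53.3 CPM and Mertk at 55.4 to 83.1 CPM. Rosa26 replicates 2 and 5 stood apart in messages of stromal cells (Sparc at 50.8 and 137 CPM, against 20.9 to 28.3 CPM in the other 3 Rosa26 libraries), and the main counts are also given without them. That fit keeps only Regular Rosa26 libraries of day 13. The Low-input Npc1 libraries are then set against Regular controls, with a protocol effect taken from the groups that hold both protocols.

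The targeted message was lower in every Npc1 library. Npc1 (ENSMUSG00000024413.15) stood at 25.3, 30.9, 30.5, 31.2 and 42.6 CPM in Npc1 cells, against 84.6, 96.9, 96.3, 116 and 94.9 CPM in Rosa26 cells. The groups did not overlap, and the change was -1.55 ± 0.17 (adjusted p = 1.47e-09). It was -1.81 among Regular and -1.42 among Low-input libraries. A 3′ tag does not show the edit itself, and the remaining level can come from edited messages, from unedited alleles or from both.

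Of 12008 genes tested, 536 (4.46%) were called at day 13, of which 325 (2.71%) were higher and 211 (1.76%) lower in Npc1 cells. Most changes were small: 10 of the higher and 65 of the lower genes passed 2-fold. Within the Regular libraries 101 genes were called and within the Low-input libraries 82. Without Rosa26 replicates 2 and 5 there were 390 calls, and the counts over single left-out libraries ran from 318 (without Npc1 replicate 5) to 636 (without Rosa26 replicate 2), with 353 without Rosa26 replicate 4. The gene lists below were read against the shares of all tested genes, which are drawn as dotted lines in the plot of called members per list. Called genes were named below by low p or large change, which favours groups that do not overlap. The share of all tested genes without overlap was not counted, so a lack of overlap describes the levels and adds no further test. The median change over all tested genes was -0.0224, and 2101 of the 12008 had an unadjusted p under 0.05 from edgeR. Unadjusted counts in the lists below are to be read against that number.

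Sterol synthesis genes were higher in Npc1 cells. Of 20 enzymes of the pathway, all tested, 10 were called higher and 0 lower, and the list's median was 0.646. The called members include Hmgcs1, an enzyme of the early pathway, and Sc5d, one of its late part. Sqle, squalene epoxidase, stood at 51.1, 41.1, 46.7, 54.4 and 62.9 CPM in Npc1 cells, against 24.6, 24.0, 27.5, 20.5 and 24.8 CPM in Rosa26 cells. All Npc1 libraries lay above all Rosa26 libraries (1.10 ± 0.14, adjusted p = 2.03e-07). Sc5d, a sterol desaturase of a late step, stood at 66.9, 74.1, 81.9, 79.1 and 79.7 CPM in Npc1 cells, against 37.6, 45.3, 36.7, 36.5 and 44.4 CPM in Rosa26 cells. Its groups did not overlap either (0.81 ± 0.11, adjusted p = 2.26e-07).

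Cyp51, which removes a methyl group from lanosterol, had 77.3, 65.2, 72.2, 73.9 and 74.6 CPM in Npc1 cells, against 33.2, 35.5, 40.3, 36.5 and 38.7 CPM in Rosa26 cells. This was a rise of 0.97 ± 0.15 with no overlap (adjusted p = 1.25e-05), and it was called within both protocols (1.05 Regular, 0.89 Low-input). Hmgcs1 shows how the protocols enter the levels. It had 129.7 and 153 CPM in the Regular Npc1 libraries, against 74.2 to 99.3 CPM in the Regular Rosa26 libraries, and 75.4 to 97.2 CPM in the Low-input Npc1 libraries, against 51.5 CPM in the Low-input Rosa26 library. The pooled levels overlap, and within each protocol all Npc1 libraries were higher (0.69 ± 0.10, adjusted p = 4.55e-06).

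Hsd17b7, a ketoreductase of the pathway, rose by 1.04 ± 0.17, Mvd, which makes isopentenyl pyrophosphate, by 0.98 ± 0.18, and Msmo1, a sterol methyl oxidase, by 0.72 ± 0.13 (adjusted p = 1.71e-05, 0.000252 and 0.000212). Fdps, which makes farnesyl pyrophosphate, rose by 0.79 ± 0.19 (adjusted p = 0.00628). In all 4, every Npc1 library lay above every Rosa26 library. The other 10 enzymes did not pass the test. Acat2 was at 0.60 ± 0.20 (adjusted p = 0.0601) and Idi1 at 1.03 ± 0.41 (adjusted p = 0.145), while Fdft1, Mvk, Nsdhl and Tm7sf2 lay between 0.02 and 0.07. The list's count was 8 within Regular and 2 within Low-input libraries, 9 without Rosa26 replicates 2 and 5, and 9 to 11 over single left-out libraries, with 0 lower in each of these fits.

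**Figure D1:**
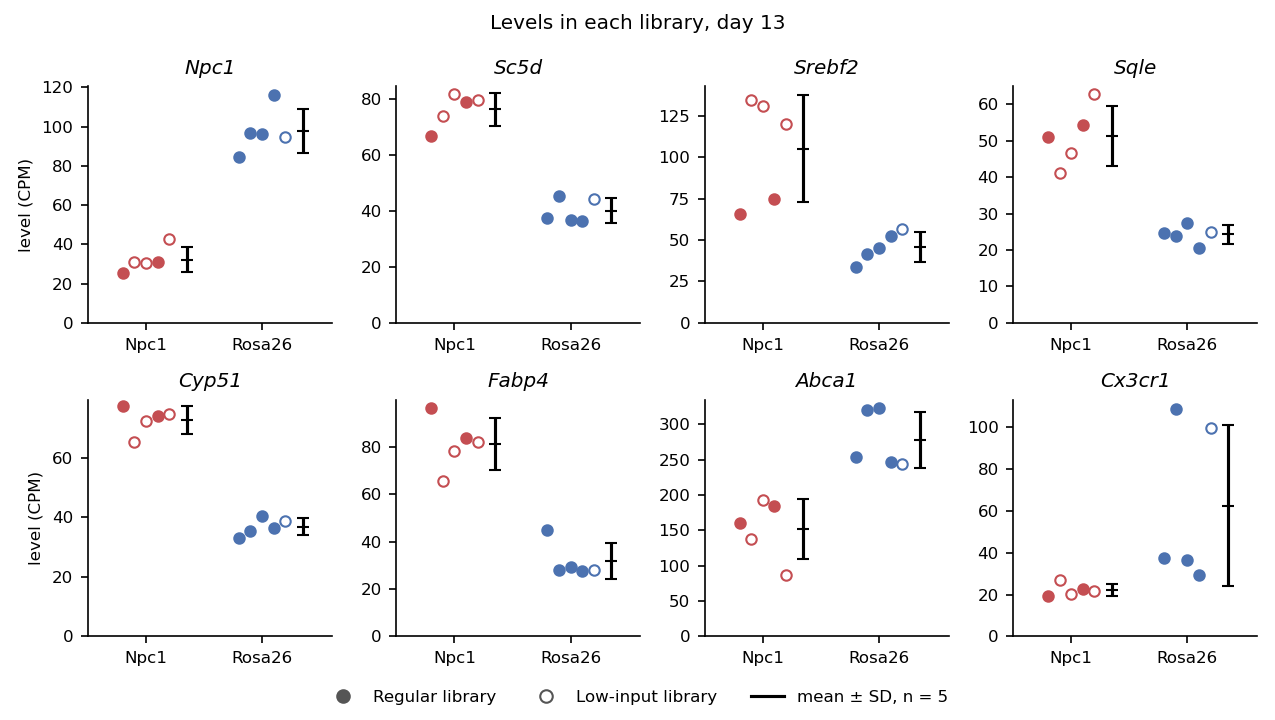
Levels of 8 genes in each day 13 library, in CPM on linear axes that start at 0, with Npc1 cells left of Rosa26 cells. Filled points are Regular and open points Low-input libraries, and bars are the mean ± SD of 5 libraries. The groups do not overlap in any of the 8 panels: Npc1, Abca1 and Cx3cr1 are lower and the other 5 genes higher in Npc1 cells, and the 2 high Rosa26 points of Cx3cr1 (109 and 99.9 CPM) are replicates 2 and 5. All 8 are called genes, which favours such separation.

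The promoters of the sterol genes are shown because members of the list moved together. RefSeq promoters (250 bases before to 50 after the start, GRCm38.p6) were at hand for 8 of the 13 called members of the sterol synthesis and SREBP control lists. The 5 with the lowest p follow, 5′ to 3′ on the gene's strand. Capitals mark matches, on either strand, to CACCCCAC (the core of a sterol regulatory element, the site of SREBP proteins), CCAAT (the site of NF-Y, read as ATTGG on the opposite strand) and CACGTG (an E-box).
Sc5d chr9:42264251-42264550 (minus strand): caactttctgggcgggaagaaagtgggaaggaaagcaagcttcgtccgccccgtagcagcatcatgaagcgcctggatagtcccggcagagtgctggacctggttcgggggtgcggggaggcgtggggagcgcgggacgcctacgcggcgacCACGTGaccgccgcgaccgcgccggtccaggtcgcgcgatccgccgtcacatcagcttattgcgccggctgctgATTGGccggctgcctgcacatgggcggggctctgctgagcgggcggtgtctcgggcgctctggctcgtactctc
Hmgcs1 chr13:119690101-119690400 (plus strand): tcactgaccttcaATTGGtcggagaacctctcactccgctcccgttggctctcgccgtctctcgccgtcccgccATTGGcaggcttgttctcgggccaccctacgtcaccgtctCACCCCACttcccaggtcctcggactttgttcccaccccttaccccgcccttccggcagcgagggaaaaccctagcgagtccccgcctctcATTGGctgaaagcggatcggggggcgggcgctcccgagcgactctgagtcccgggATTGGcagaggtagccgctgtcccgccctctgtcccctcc
Cyp51 chr5:4104648-4104947 (minus strand): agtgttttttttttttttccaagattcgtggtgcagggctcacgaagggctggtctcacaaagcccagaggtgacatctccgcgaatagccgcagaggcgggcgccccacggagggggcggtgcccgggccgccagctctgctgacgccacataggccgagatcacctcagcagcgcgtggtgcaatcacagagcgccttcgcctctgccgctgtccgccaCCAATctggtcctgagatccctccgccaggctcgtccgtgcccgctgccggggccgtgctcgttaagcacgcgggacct
Hsd17b7 chr1:169969156-169969455 (minus strand): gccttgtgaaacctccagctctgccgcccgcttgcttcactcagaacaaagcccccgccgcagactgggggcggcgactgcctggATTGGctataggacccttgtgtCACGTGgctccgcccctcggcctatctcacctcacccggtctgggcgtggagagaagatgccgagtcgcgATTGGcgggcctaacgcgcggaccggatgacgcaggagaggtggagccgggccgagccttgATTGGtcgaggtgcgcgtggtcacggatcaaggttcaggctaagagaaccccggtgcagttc
Srebf2 chr15:82147019-82147318 (plus strand): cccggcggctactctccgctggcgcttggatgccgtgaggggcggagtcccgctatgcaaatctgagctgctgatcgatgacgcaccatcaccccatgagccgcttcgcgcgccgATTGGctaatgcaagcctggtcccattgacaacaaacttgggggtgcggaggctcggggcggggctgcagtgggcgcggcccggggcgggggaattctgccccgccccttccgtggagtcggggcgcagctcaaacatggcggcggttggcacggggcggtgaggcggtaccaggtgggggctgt

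CCAAT was present in 8 of 8 of these promoters, against 43.4% of the 8952 promoters of tested genes. CACGTG was present in 3 of 8 (Sc5d, Hsd17b7 and Insig1), against 12% of tested genes. CACCCCAC was present in 1 of 8 (Hmgcs1, starting 136 bases before the start), against 3.68%, and the longer consensus of the sterol regulatory element, which ends in that core, in 0 of 8, against 0.0335%. The CLEAR element, which contains the E-box, and the direct repeat read by LXR with its partner were found in 0 of 8, against 0.871% and 0% of tested genes. No match says only that these letters are absent from this window, and a match is a description of the sequence. The 1 called gene of the LXR list, Abca1, held CACGTG and none of the other motifs.

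Genes of sterol uptake and of SREBP control changed in fewer members. Of 16 genes in the list, 15 were tested, and 3 were called higher and 0 lower, with a median of 0.101. Srebf2, the gene of SREBP2, stood at 66.0, 135, 131, 74.6 and 119.9 CPM in Npc1 cells, against 33.9, 41.5, 45.2, 52.2 and 56.9 CPM in Rosa26 cells. Within Npc1 cells the 3 Low-input libraries were the high ones, and the change was called within both protocols (0.70 Regular, 1.20 Low-input, 0.86 ± 0.14 pooled with adjusted p = 1.95e-05). Insig1, itself a target of SREBP2, rose by 0.59 ± 0.19 (adjusted p = 0.0485). That call was lost in 6 of 10 fits that left out a library and without Rosa26 replicates 2 and 5 (0.46, adjusted p = 0.286). Srebf1 was at 0.01, Insig2 at -0.01 and Scap, the escort of SREBP proteins, at -0.18, all far from the threshold.

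Of the LXR targets, 1 was called and it was lower. Of 17 genes in the list 15 were tested, with 0 called higher, 1 lower and a median of -0.226. The call was Abca1, the exporter that loads cholesterol onto apolipoproteins. It stood at 160, 137, 193, 184 and 86.9 CPM in Npc1 cells, against 254, 320, 323, 247 and 244 CPM in Rosa26 cells. All Npc1 libraries lay below all Rosa26 libraries (-0.74 ± 0.17, adjusted p = 0.00422), and the values within protocols were -0.74 and -0.80, of which neither passed alone (adjusted p = 0.0825 and 0.395). Without Rosa26 replicates 2 and 5 it was -0.67 (adjusted p = 0.0506). Mylip, a ubiquitin ligase induced by LXR, had -0.53 ± 0.17 (adjusted p = 0.0569), with all 5 Npc1 libraries below all Rosa26 libraries. Apoe, the apolipoprotein that macrophages secrete, had -0.20 ± 0.17 (adjusted p = 0.571).

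**Figure D2:**
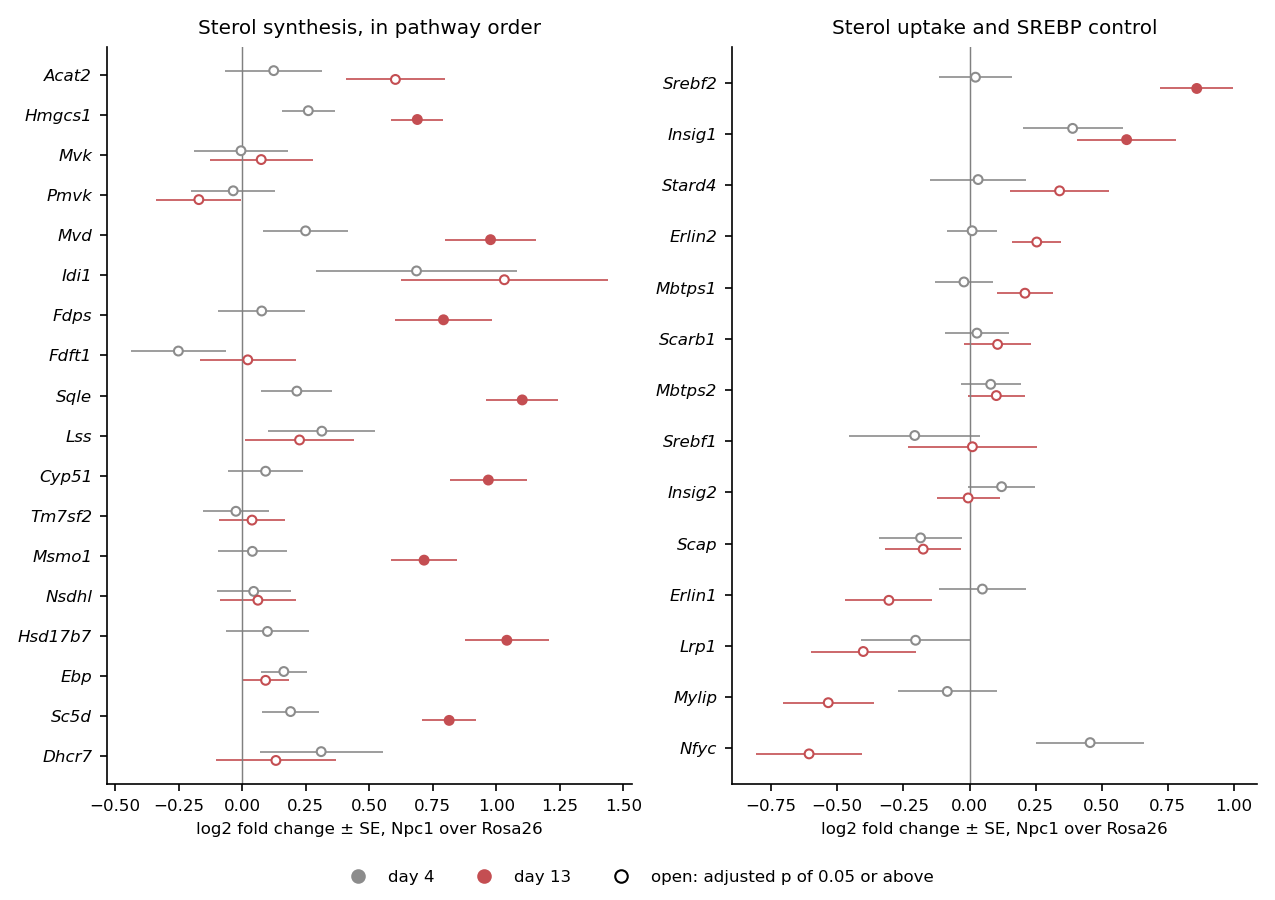
Log2 fold changes ± SE of Npc1 over Rosa26 cells for tested members of the sterol synthesis list (left, in the order of the pathway) and the uptake and control list (right), at day 4 (grey) and day 13 (red). Filled points passed an adjusted p of 0.05: 10 of the genes shown at day 13 and none of them at day 4.

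Several fatty acid binding and lipid droplet genes were called higher. Of 19 genes of lipid storage and uptake 16 were tested, and 7 were called higher and 0 lower (median 0.199). Fabp4, a fatty acid binding protein of macrophages and fat cells, stood at 96.4, 65.7, 78.1, 83.6 and 81.9 CPM in Npc1 cells, against 45.1, 28.1, 29.5, 27.5 and 28.2 CPM in Rosa26 cells (1.42 ± 0.21, adjusted p = 4.28e-06). Its groups did not overlap, although Rosa26 replicate 1 lay well above the other Rosa26 libraries. Fabp5, its close relative, stood at 683, 636, 695, 675 and 665 CPM in Npc1 cells, against 437, 346, 316, 304 and 461 CPM in Rosa26 cells (0.77 ± 0.14, adjusted p = 0.000252).

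Hilpda, an inhibitor of triglyceride breakdown on lipid droplets, rose by 0.73 ± 0.18, Mgll, which cleaves monoglycerides, by 0.77 ± 0.23 and Plin2, a droplet coat protein, by 0.34 ± 0.09 (adjusted p = 0.00795, 0.0394 and 0.0125). Soat1, which esterifies cholesterol for storage, and Nceh1, which releases it from the ester, both rose slightly (0.28 ± 0.08 and 0.30 ± 0.09, adjusted p = 0.0299 and 0.0361). The lipase Lpl (0.04), the scavenger receptors Cd36 (-0.06) and Msr1 (0.01) and Dgat1 (0.02) did not pass. The list's count of higher genes was 2 within Regular and 0 within Low-input libraries, 5 without Rosa26 replicates 2 and 5, and 3 without Npc1 replicate 5, 4 without Rosa26 replicate 3 and 5 to 7 without any other single library. It was 4 without the protocol term and 3 in a fit of these groups alone. Of 18 fatty acid synthesis genes, Acsl3 (0.57 ± 0.12) and Hsd17b12 (0.35 ± 0.09), which activate and elongate fatty acids, were called higher and 0 lower. Of 17 tested genes of sterol transfer at membrane contacts, Tmem97, which binds NPC1, rose by 0.51 ± 0.12 and Osbpl8 by 0.32 ± 0.08, and the 1 lower call was Npc1 itself. Among 20 tested genes of sphingolipid metabolism, the ceramide synthase Cers2 was higher (0.30 ± 0.08) and Sgpp1 (-0.29 ± 0.08) and the glucosylceramide synthase Ugcg (-0.51 ± 0.15) were lower. The call of Ugcg was lost in 5 of 10 fits that left out a library.

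The lipid-associated macrophage list, which holds genes of macrophages in fat tissue, plaques and damaged brain, was called in both directions. Of 26 tested members 8 were higher and 2 lower, with a median of 0.0812. Beside Fabp4, Fabp5 and Plin2 the higher ones were Spp1 (osteopontin), Gpnmb, Cd63, Cd9 and Vat1. Spp1 stood at 1832, 2499, 2416, 1738 and 2216 CPM in Npc1 cells, against 1144, 1324, 1154, 1122 and 1808 CPM in Rosa26 cells (0.52 ± 0.09, adjusted p = 0.000132). The Rosa26 library at 1808 CPM was the Low-input one, and within each protocol all Npc1 libraries were higher. Gpnmb, a glycoprotein of lysosomes and the surface, stood at 4916, 6491, 6114, 5487 and 7529 CPM in Npc1 cells, against 3678, 4127, 3680, 3516 and 4578 CPM in Rosa26 cells, with no overlap (0.55 ± 0.11, adjusted p = 0.000527). The lower ones were the growth factor Igf1 (-0.28 ± 0.07) and the receptor tyrosine kinase Axl (-1.05 ± 0.29), and Trem2 itself was at -0.13 ± 0.13 (adjusted p = 0.657). The counts were 5 higher and 1 lower within Regular libraries, 0 higher and 1 lower within Low-input libraries, 5 higher and 1 lower in a fit of these groups alone, and 8 higher and 1 lower without Rosa26 replicates 2 and 5. Over single left-out libraries they ran from 6 to 8 higher and from 0 (without Npc1 replicate 1) to 3 lower.

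Of the lysosomal genes, the subunits of the V-ATPase, the proton pump that acidifies the lumen, rose most often. Of 17 subunits tested 9 were higher and 0 lower, with a median of 0.249. Atp6v1b2 stood at 939, 941, 926, 986 and 1091 CPM in Npc1 cells, against 639, 782, 680, 621 and 758 CPM in Rosa26 cells (0.45 ± 0.09, adjusted p = 0.00048). The other called subunits were Atp6ap1 (0.49), Atp6v1f (0.41), Atp6ap2 (0.40), Atp6v1c1 (0.38), Atp6v1h (0.33), Atp6v1a (0.30), Atp6v0c (0.25) and Atp6v0d1 (0.23). These are small changes, and the last of them had adjusted p-values near the threshold (0.0499 and 0.0457). The list's count was 3 within Regular and 0 within Low-input libraries, 6 without Rosa26 replicates 2 and 5, 5 without Rosa26 replicate 4, 6 to 9 without any other single library and 5 in a fit of these groups alone.

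The hydrolases of the lumen did not move together. Of 44 tested 4 were higher and 2 lower, with a median of 0.104. Gla, the alpha-galactosidase that is deficient in Fabry disease, stood at 198, 173, 166, 214 and 179 CPM in Npc1 cells, against 117, 143, 128, 138 and 110.1 CPM in Rosa26 cells, with no overlap (0.69 ± 0.09, adjusted p = 2.11e-07). Scpep1, a serine carboxypeptidase, rose by 0.44 ± 0.09, and the heparan sulphate degrading enzymes Sgsh and Naglu rose by 0.69 ± 0.21 and 0.40 ± 0.12 (adjusted p = 0.000734, 0.0452 and 0.0455). The lower ones were the cysteine proteases Ctsc (-0.85 ± 0.14, adjusted p = 2.04e-05) and Ctsh (-0.64 ± 0.17, adjusted p = 0.0135). Of 29 lysosomal membrane and sorting genes, Cd63 (0.49 ± 0.09) and Laptm4a (0.39 ± 0.10) were higher and Npc1 lower.

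Of 21 tested genes of MiT/TFE factors and nutrient sensing, 3 were called higher and 0 lower. They were Gpnmb, a common target of these factors, and Rraga (0.56 ± 0.12) and Rragd (0.47 ± 0.13), GTPases that bring mTORC1 to the lysosome. Of 30 autophagy genes edgeR called 0, with 4 higher and 0 lower at an unadjusted p under 0.05 and 1 called by DESeq2. The list's median was 0.073.

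**Figure D3:**
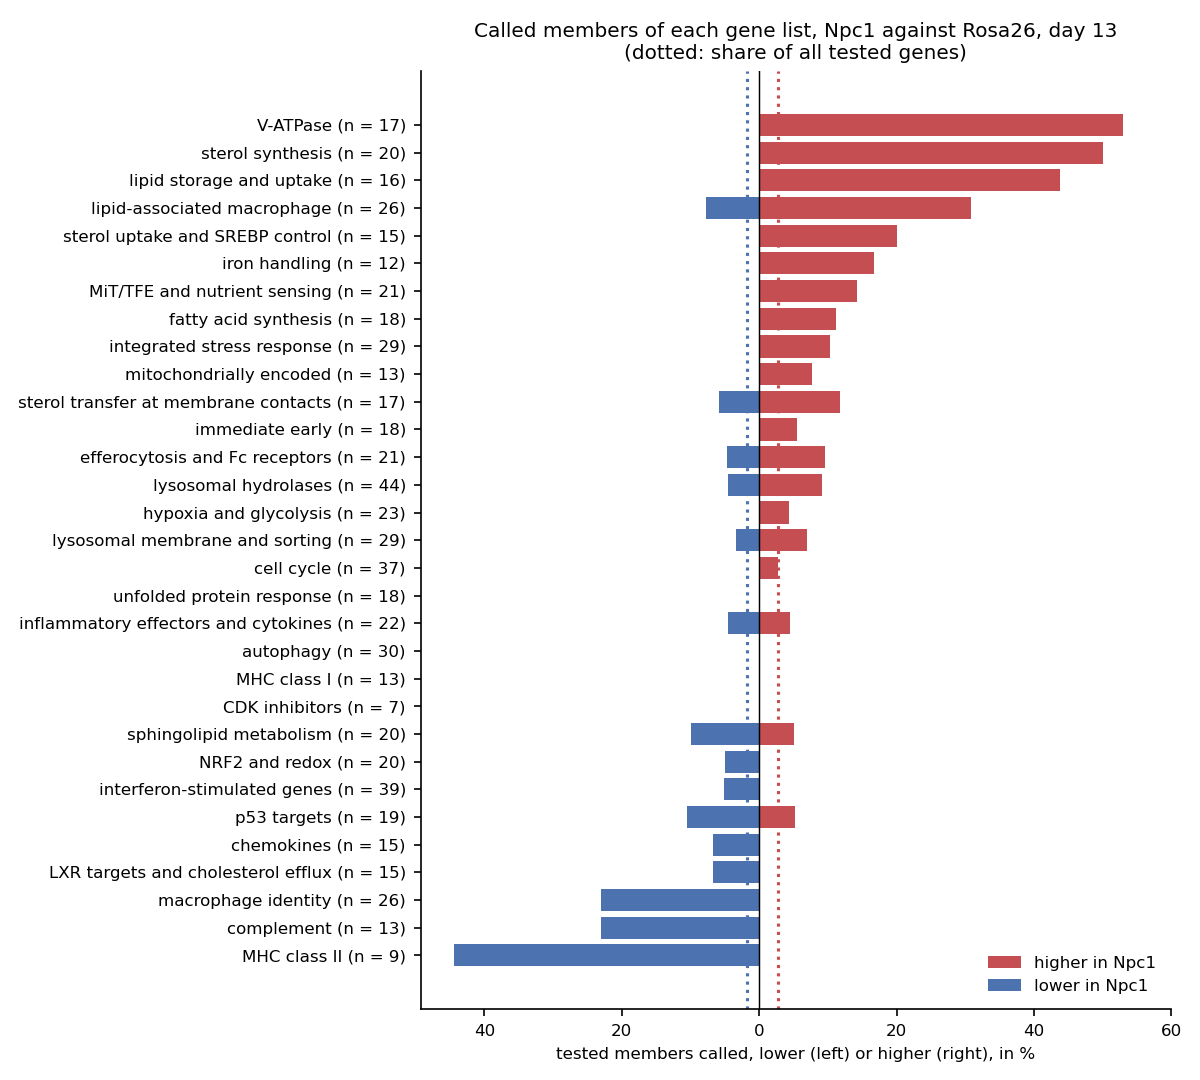
Share of the tested members of each gene list that were called higher (red, right) or lower (blue, left) in Npc1 cells at day 13, in percent, with the number tested beside each name. Dotted lines mark the shares over all tested genes (2.71% higher, 1.76% lower). The V-ATPase, sterol synthesis and lipid storage lists reach farthest to the right, and MHC class II, complement and macrophage identity farthest to the left.

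Antigen presentation genes of class II were lower in Npc1 cells. Of 10 genes in the list 9 were tested, and 0 were higher and 4 lower, with a median of -0.715. H2-Ab1, the beta chain of the I-A molecule, stood at 21.7, 27.9, 25.3, 20.0 and 31.0 CPM in Npc1 cells, against 60.02, 36.3, 32.7, 36.0 and 56.2 CPM in Rosa26 cells, with no overlap (-1.01 ± 0.23, adjusted p = 0.00435). H2-Eb1, the beta chain of I-E, stood at 13.4, 16.6, 16.1, 13.9 and 14.3 CPM in Npc1 cells, against 17.5, 23.8, 25.7, 16.9 and 40.5 CPM in Rosa26 cells (-1.02 ± 0.27, adjusted p = 0.0151). H2-DMa, which helps load peptides, and the costimulatory Cd86 fell by 0.79 and 0.70 on the log2 scale (adjusted p = 0.0159 and 0.0191). H2-Aa (-0.72 ± 0.25), the invariant chain Cd74 (-0.62 ± 0.23) and the regulator Ciita (-1.10 ± 0.42) did not pass (adjusted p = 0.0861, 0.119 and 0.124).

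No class II gene passed within a protocol alone, and 2 were called without Rosa26 replicates 2 and 5. The same number was called without Npc1 replicate 4 or 5, and by DESeq2. Class II is carried by dendritic cells too, and their summed markers (8 genes, Cd209a at 0 in all 10 libraries) ran from 81.2 to 96.2 CPM in Npc1 cells, against 95.7 to 141 CPM in Rosa26 cells. Nearly all of that sum was their only tested member, Clec10a, a lectin that macrophages also make (79.4 to 93.5 CPM in Npc1, 93.0 to 136 CPM in Rosa26 cells). Clec10a was lower (-0.60 ± 0.16, adjusted p = 0.0159). In bulk RNA, fewer cells of a type and less RNA per cell cannot be told apart, and the part of dendritic cells in the class II result was not tested. Of 13 class I genes edgeR called 0 (1 higher and 1 lower at an unadjusted p under 0.05, 0 by DESeq2).

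Macrophage identity genes were called lower or not at all. Of 26 tested 0 were higher and 6 lower, with a median of -0.259. Cx3cr1, the fractalkine receptor, stood at 19.3, 27.1, 20.3, 22.9 and 21.5 CPM in Npc1 cells, against 37.6, 109, 36.7, 29.2 and 99.9 CPM in Rosa26 cells (-1.68 ± 0.23, adjusted p = 9.39e-07). The 2 high Rosa26 values are the libraries with the stromal messages, and without them the fall was 0.91 in size and still called (-0.91, adjusted p = 0.0273). F13a1, the coagulation factor XIII A chain made by monocytes and some macrophages, stood at 1.78, 1.28, 2.06, 1.52 and 1.98 CPM in Npc1 cells, against 9.69, 4.24, 7.33, 7.75 and 7.09 CPM in Rosa26 cells (-2.17 ± 0.35, adjusted p = 1.95e-05). It was lower in all Npc1 libraries, and its value without Rosa26 replicates 2 and 5 was -2.57.

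Adgre1, which encodes F4/80, fell by a smaller amount (-0.49 ± 0.10, adjusted p = 0.00101). Lyz2, the lysozyme of myeloid cells, had -0.48 ± 0.13 and the complement subunits C1qc and C1qa had -0.43 ± 0.11 and -0.47 ± 0.14 (adjusted p = 0.0199, 0.00778 and 0.042). The call of C1qa was lost in 9 of 10 fits that left out a library. Its value was 0.0085 without the protocol term, but -0.40 among Regular and -0.48 among Low-input libraries. Csf1r (-0.33), Mertk (-0.30), Itgam (-0.17) and the factor Spi1 (-0.04) did not pass. Of 13 tested complement genes 0 were higher and 3 lower, C1qa and C1qc among them. The identity list had 3 lower calls within Regular and 1 within Low-input libraries, 4 without Rosa26 replicates 2 and 5, 3 without Npc1 replicate 5 and 2 without the protocol term. The complement list had 1 without Npc1 replicate 5 and 1 without the protocol term.

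**Figure D4:**
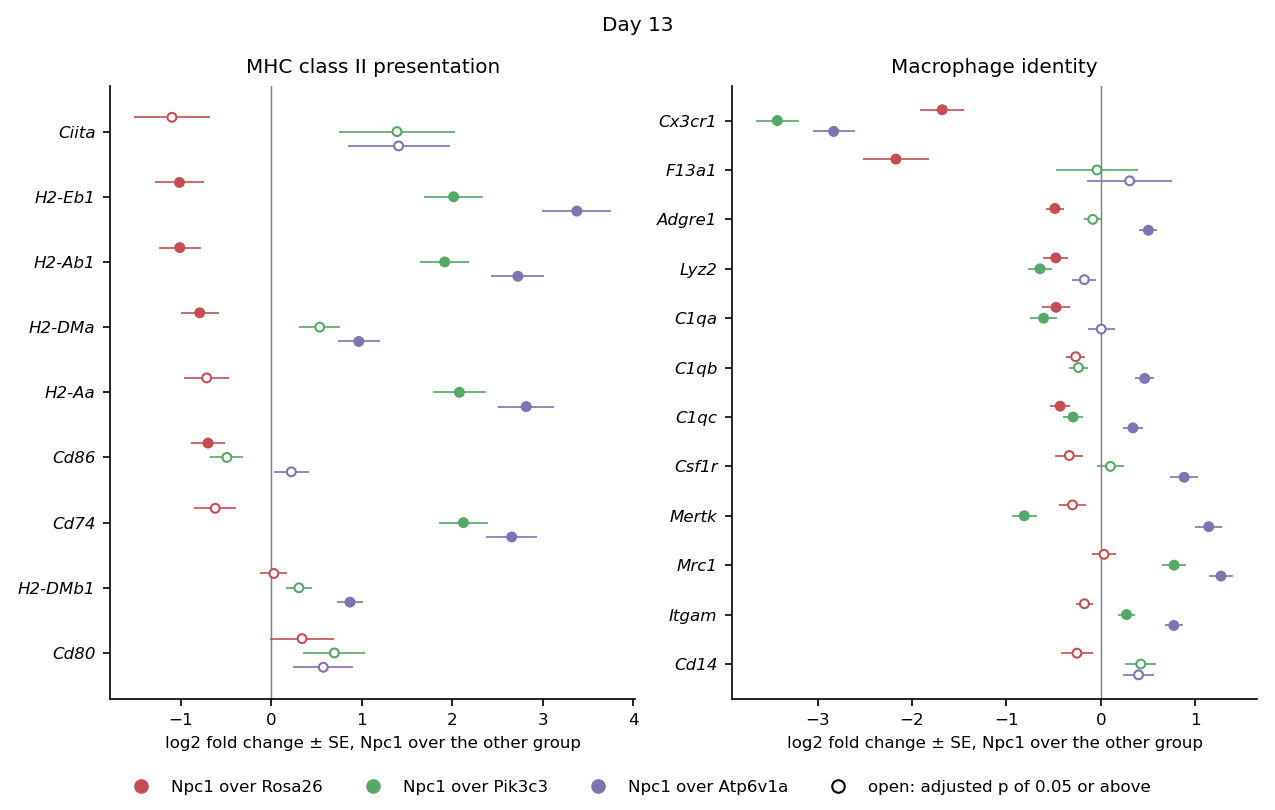
Log2 fold changes ± SE at day 13 for the tested class II genes (left) and 12 macrophage identity genes (right), as Npc1 over Rosa26 (red), Npc1 over Pik3c3 (green) and Npc1 over Atp6v1a cells (purple). Filled points passed an adjusted p of 0.05. H2-Ab1 and H2-Eb1 lie left of 0 against Rosa26 and right of 0 against both other knockouts, and Cx3cr1 lies left of 0 in all 3 comparisons.

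Stress and signalling lists held few calls. In the integrated stress response list, 3 of 29 tested genes were higher and 0 lower: Atf4, its transcription factor (0.58 ± 0.14, adjusted p = 0.00851), the secreted factor Gdf15 (0.85 ± 0.21, adjusted p = 0.00891) and Sars, a tRNA synthetase (0.44 ± 0.10, adjusted p = 0.0031). Gdf15 stood at 64.8, 98.7, 91.3, 69.7 and 103 CPM in Npc1 cells, against 27.2, 39.2, 41.0, 47.4 and 52.9 CPM in Rosa26 cells, with no overlap. Common targets of ATF4 such as Ddit3 (0.01), Asns (-0.10) and Trib3 (0.17) did not pass. Sars was at 0.37 among Regular and 0.52 among Low-input libraries, and its direction turned without the protocol term (-0.31). Of 18 unfolded protein response genes edgeR called 0, with 2 higher and 1 lower at an unadjusted p under 0.05 and 0 by DESeq2.

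Among 39 interferon-stimulated genes 0 were higher and 2 lower (Oasl2 at -0.70 ± 0.20 and Gbp7 at -0.57 ± 0.16). The list's median was -0.394, and 13 members were lower and 0 higher at an unadjusted p under 0.05. Over all genes 2101 of 12008 passed that cut in either direction. Of 22 tested inflammatory genes Tnfaip2 was higher and Cd86 lower. Of 15 chemokines Pf4 was lower (-0.53 ± 0.11), which is also made by platelets and megakaryocytes. Of 21 tested efferocytosis and Fc receptor genes, Cd300lf and Gas6, a bridging ligand, were higher and Axl, its receptor, lower. Of 19 tested p53 targets Gdf15 was higher and Phlda3 and Gtse1 lower. Of 7 CDK inhibitors edgeR called 0 (1 higher and 0 lower at an unadjusted p under 0.05, 0 by DESeq2), and of 37 cell cycle genes only Stmn1 was called (0.35 ± 0.09). Single calls came from the hypoxia and glycolysis list (Pgam1, 0.28 ± 0.09, of 23), the NRF2 and redox list (Gclm, -0.49 ± 0.10, of 20), the immediate early list (Egr1, 0.76 ± 0.18, of 18) and the mitochondrially encoded list (mt-Nd4l, 0.36 ± 0.11, of 13). Of 12 tested iron handling genes, Slc11a2 and Steap3, which carry and reduce iron, were higher. Of these, Gtse1 was lost in all 10 fits that left out a library, and Cd86, Oasl2, Gbp7, Tnfaip2, Slc11a2, Steap3, Pgam1, Phlda3, Gas6 and mt-Nd4l in 4 to 6 of 10.

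The largest changes were also taken by size, among called genes with a mean of at least 5 CPM in either group and the same direction between all same-numbered libraries. The 12 largest rises held the sterol genes Sqle, Hsd17b7, Mvd and Cyp51, and Fabp4. They also held Dusp2, a nuclear phosphatase of MAP kinases (1.67 ± 0.34), Slamf8, a surface receptor of myeloid cells (0.97 ± 0.14), Sh3rf1 (0.94 ± 0.24), the tubulin Tubb2b (0.89 ± 0.20) and Arhgef39 (0.87 ± 0.25), whose call was lost in 6 of 10 fits that left out a library. Slamf8 stood at 42.5, 60.1, 52.5, 44.2 and 80.4 CPM in Npc1 cells, against 23.5, 28.3, 21.3, 23.7 and 30.1 CPM in Rosa26 cells, and was called within both protocols (0.83 and 1.13). Dusp2 was scarce, at 3.07 to 7.44 CPM in Npc1 cells, against 0.667 to 2.61 CPM in Rosa26 cells.

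Beside Npc1, F13a1 and Cx3cr1, the 12 largest falls held Adgre4, an adhesion receptor of macrophages, at 10.7, 17.1, 14.4, 10.9 and 11.4 CPM in Npc1 cells, against 42.9, 36.3, 36.7, 27.8 and 45.5 CPM in Rosa26 cells (-1.67 ± 0.22, adjusted p = 3.79e-07). They also held Sema4a (-1.47 ± 0.25) and the predicted genes Gm24305 (-2.83 ± 0.88), Gm55073 (-1.41 ± 0.35) and Gm54867 (-1.39 ± 0.37). Gm24305 was at 0 in 3 Npc1 libraries and lost its call in 7 of 10 fits that left out a library. Gm54867 lost it in 3 of 10, and was at -1.87 among Regular and -0.28 among Low-input libraries. Gm55073 was at -1.52 and -0.99. The gene with the lowest p was Tgfbi, a matrix protein induced by TGF-beta. It stood at 32.1, 55.7, 53.1, 36.4 and 54.4 CPM in Npc1 cells, against 73.8, 83.6, 65.3, 83.8 and 174 CPM in Rosa26 cells. Its groups did not overlap (-1.31 ± 0.14, adjusted p = 9.82e-10), and it was called within both protocols (-1.17 and -1.65) and without Rosa26 replicates 2 and 5 (-1.12).

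The remaining large falls, Mgp, Sparc and Pmepa1, and the collagens Col1a1 and Col1a2 went with the stromal messages of the Rosa26 libraries. Summed over 8 stromal markers, Npc1 libraries lay at 4.92 to 22.4 CPM, against 22 to 306 CPM in Rosa26 libraries, and 3 of 3 tested members were called lower. Sparc stood at 18.4, 4.09, 3.52, 12.7 and 4.39 CPM in Npc1 cells, against 20.9, 50.8, 21.3, 28.3 and 137 CPM in Rosa26 cells (-2.66 ± 0.48, adjusted p = 0.000179). Col1a1 stood at 0.297, 0.321, 0.587, 0.909 and 0.439 CPM in Npc1 cells, against 0.373, 9.26, 0, 0.456 and 69 CPM in Rosa26 cells. Without Rosa26 replicates 2 and 5 none of these passed: Sparc was at -0.83 (adjusted p = 0.379), Mgp at -1.25 (0.57), Pmepa1 at -0.65 (0.467), Col1a1 at -0.11 (0.985) and Col1a2 at 0.15 (0.977). These 2 libraries were left out because their stromal messages were high. The loss of stromal calls was therefore largely fixed by that choice and is no separate test.

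Other marker lists moved less. The 25 brain markers summed to 381 and 402 CPM in the Regular Npc1 libraries, against 404 to 625 CPM in the Regular Rosa26 libraries, and to 171 to 181 CPM in the Low-input Npc1 libraries, against 173 CPM in the Low-input Rosa26 library. Of 22 tested brain markers 1 was called lower, the noncoding Snhg11 (-1.84), whose call was lost in 5 of 10 fits that left out a library and with this sum as a further term (-1.46, adjusted p = 0.104). With that term 522 genes were called, and the sterol synthesis count was 10 higher and 0 lower. The 4 haemoglobin genes summed to 1.02 to 10.7 CPM in Npc1 libraries, against 3.66 to 19.6 CPM in Rosa26 libraries, and the erythroid list of 7 (1 of them at 0 in all 10 libraries) to 1.02 to 11 CPM in Npc1, against 3.66 to 20 CPM in Rosa26 libraries. Of its 3 tested members edgeR called 0, with 1 lower at an unadjusted p under 0.05 and 0 by DESeq2. Lymphocyte markers (10 genes, Cd3g and Nkg7 at 0 in all 10) summed to 48.3 to 78.7 CPM in Npc1 libraries, against 82.5 to 117 CPM in Rosa26 libraries. Nearly all of that was Ighm, the immunoglobulin heavy chain, which was lower (-0.87 ± 0.14, adjusted p = 2.5e-05). Megakaryocyte markers (6 genes, 2 of them at 0 in all 10) lay at 206 to 376 CPM in Npc1, against 252 to 483 CPM in Rosa26 libraries, nearly all Pf4. Osteoclast markers (9 genes) lay at 456 to 550 CPM in Npc1, against 354 to 449 CPM in Rosa26 libraries. Neutrophil markers (10 genes, Elane, Ly6g and Retnlg at 0) were at 2.94 to 6.59 CPM in Npc1, against 1.85 to 5.92 CPM in Rosa26 libraries, and mast cell and basophil markers (8 genes, 4 of them at 0) at 1.49 to 2.35 CPM in Npc1, against 1.33 to 2.28 CPM in Rosa26 libraries. In the neutrophil, osteoclast and mast cell lists edgeR and DESeq2 called 0 of 3, 5 and 1 tested members, and 1 osteoclast gene was higher at an unadjusted p under 0.05. The part of these messages, the stromal ones included, in the results was not tested.

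**Figure D5:**
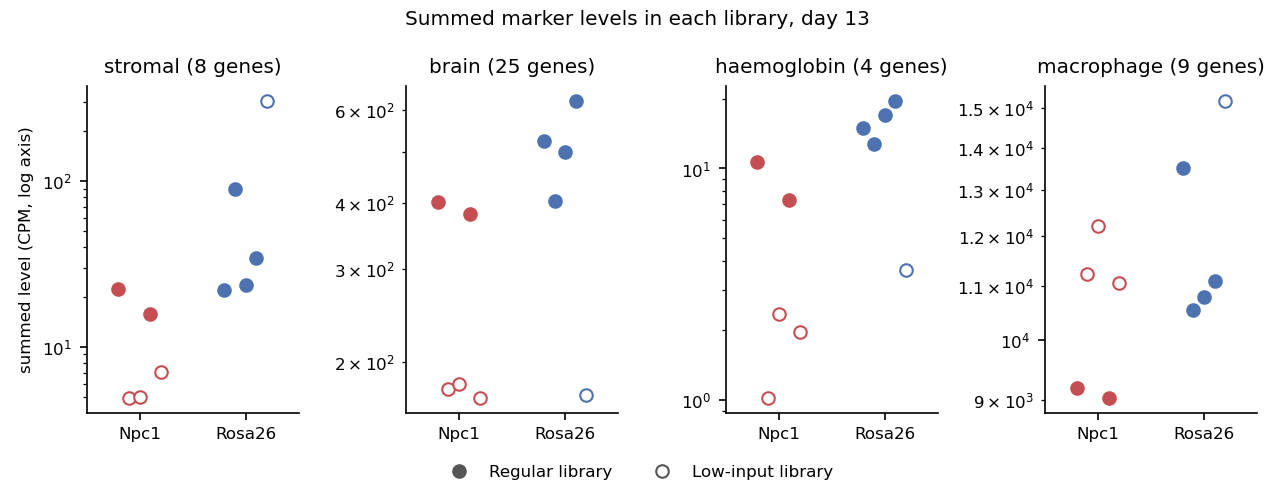
Summed CPM, on log axes, of marker lists in each day 13 library, with Npc1 left of Rosa26 and Regular (filled) and Low-input (open) libraries apart. Rosa26 replicate 5 is the high stromal point (306 CPM), and the brain and haemoglobin sums are lower in Low-input than in Regular libraries of both groups.

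At day 4 the only call was Npc1 itself (-1.60 ± 0.18, adjusted p = 1.23e-08), 0.00833% of the genes tested, with 464 genes at an unadjusted p under 0.05 and 3 called by DESeq2. The sterol synthesis list had 0 calls at day 4 by edgeR, 2 higher and 0 lower at an unadjusted p under 0.05, and a median of 0.132. The difference between the days' effects was tested directly: 24 genes (0.2%) were called, 10 (0.0833%) with a larger and 14 (0.117%) with a smaller value at day 13. The number fell to 10 without Npc1 day 4 replicate 3 and to 13 without Npc1 day 4 replicate 2. The comparisons of the days have no library in common. Of the sterol lists, Sqle (0.89 ± 0.20), Cyp51 (0.88 ± 0.21) and Srebf2 (0.84 ± 0.19) were among those called, with adjusted p-values of 0.0215, 0.0489 and 0.0333.

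The levels on both days are given as means over libraries. Sqle was at 46.2 ± 0.626 CPM in Npc1 cells of day 4 (SD, n = 4) and 51.2 ± 8.19 CPM on day 13 (SD, n = 5), against 40.1 ± 3.90 and 24.3 ± 2.49 CPM in Rosa26 cells (SD, n = 5 each). Srebf2 was at 74.9 ± 4.58 and 105 ± 32.5 CPM in Npc1 cells of days 4 and 13, against 74.3 ± 9.07 and 45.9 ± 9.0 CPM in Rosa26 cells. In all 13 called sterol genes the Rosa26 mean was lower on day 13 than on day 4, and in 5 of the 13 the Npc1 mean was. The 13 were picked by their higher calls at day 13, which a low Rosa26 level on that day favours. The count of falling Rosa26 means therefore cannot show a change between days. All day 4 libraries of these groups were Regular, so means across days mix protocols, and this count was not tested.

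Other genes whose effect differed between days included Fabp4 (1.54 ± 0.31), Slamf8 (1.22 ± 0.22), Gla (0.58 ± 0.13), Dusp2 (2.03 ± 0.45) and Dio2, a deiodinase of thyroid hormone (1.43 ± 0.31). The smaller values at day 13 included Tgfbi (-1.55 ± 0.19), F13a1 (-2.75 ± 0.41), Mgl2, a lectin of alternatively activated macrophages (-2.54 ± 0.41), and Fcrls (-1.50 ± 0.27). F13a1 was at 15.8 ± 2.39 CPM in Npc1 cells of day 4 (SD, n = 4) and 1.72 ± 0.324 CPM on day 13 (SD, n = 5), against 10.7 ± 1.89 and 7.22 ± 1.96 CPM in Rosa26 cells (SD, n = 5 each). The class II genes were not called at day 4 and not called in the difference, with H2-Ab1 at -0.99 ± 0.38 at day 4 and a difference of -0.03 ± 0.57.

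Set directly against other lysosomal knockouts of day 13, Npc1 cells differed in 1604 genes (13.4%) from Pik3c3 cells and in 2402 (20.0%) from Atp6v1a cells. These comparisons share the Npc1 libraries with the main one and use no Rosa26 library. Sterol synthesis genes were lower in Npc1 than in Pik3c3 cells, with 13 of 20 called lower and 0 higher, against 850 lower calls (7.08%) over all genes. Mvd was at 25.9 ± 5.55 CPM in Npc1 cells, against 86.2 ± 20.3 CPM in Pik3c3 cells (SD, n = 5 each; -1.65 ± 0.14, adjusted p = 7.81e-15). Sqle (-0.23 ± 0.13, adjusted p = 0.274) and Srebf2 (-0.03 ± 0.13, adjusted p = 0.921) did not pass there. Against Atp6v1a cells 5 sterol synthesis genes were higher and 1 lower, against 9.64% higher and 10.4% lower over all genes. The higher ones included Hsd17b7 (0.86) and Sqle (0.64), and the lower one was Mvd (-0.97).

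Class II genes, lower in Npc1 than in Rosa26 cells, were higher in Npc1 cells than in both other knockouts. The counts were 4 of 9 higher and 0 lower against Pik3c3 cells (6.28% of all genes were higher), and 6 of 9 higher and 0 lower against Atp6v1a cells. H2-Ab1 was at 25.2 ± 4.45 CPM in Npc1 cells, against 6.83 ± 2.23 CPM in Pik3c3 and 3.86 ± 1.63 CPM in Atp6v1a cells (SD, n = 5 each; 1.91 ± 0.27 and 2.72 ± 0.29, adjusted p = 1.02e-07 and 1.83e-11). Cx3cr1 was far lower in Npc1 cells, at 22.2 ± 3.03 CPM, against 242 ± 50.6 CPM in Pik3c3 and 160.3 ± 35.0 CPM in Atp6v1a cells (-3.43 ± 0.23 and -2.83 ± 0.22, adjusted p = 5.9e-20 and 3.36e-16). Of 29 integrated stress response genes 24 were lower and 0 higher in Npc1 than in Atp6v1a cells, among them Ddit3 (-2.01) and Pck2 (-1.98), both targets of ATF4. Of 37 cell cycle genes 20 were higher and 0 lower in Npc1 than in Pik3c3 cells. Against Atp6v1a cells 6 of them were higher and 11 lower, with a median of -0.209. Cdkn1c, an inhibitor of cyclin-dependent kinases, was much lower in Npc1 cells than in either (-4.37 and -4.60), and had 0.31 ± 0.23 against Rosa26 cells (adjusted p = 0.506).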

How the data were processed

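RNA of Cas9-edited mouse bone marrow-derived macrophages was measured with 3′ tag libraries carrying unique molecular identifiers, sequenced single-end. The deposited values are estimated counts per gene that the authors made with Salmon; GRCm39 is the build named, both per the submitters' processing notes. Of the values above 0, 31.2% were not whole. They were rounded to whole numbers here.

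One model was fitted to all 69 libraries of the 14 groups with edgeR 4.0.16 in R 4.3.3 (TMM scaling, filterByExpr by group, group plus library protocol, glmQLFit and glmQLFTest), which left 12008 of 56980 genes. P-values were adjusted by the Benjamini-Hochberg method over all of them. SEs are the log2 fold change divided by the root of the F statistic. CPM keeps the protocol difference, which the fold changes do not. Protocol-adjusted log2 CPM used a prior count of 2. The fit was also run on counts simulated from its own model, which meet its assumptions, so that run cannot test them. Alternatives were DESeq2 1.42.0, other scaling and filters, single protocols and left-out libraries.

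Largest changes were named at a mean of at least 5 CPM, and called list members by lowest p; further members, those not called included, were chosen after their values were seen. The members and lists were chosen with earlier results of these data known. A few genes are counted in the lists but not reported here by name. Low totals limit the precision of genes of a few CPM. Promoters are RefSeq's, of GRCm38.p6.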

Additional observations from a re-analysis of the deposited data

Results flagged for a closer look

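Single libraries stood apart from the other 4 of their group in 9 of 200 groups tested, and chance gives about 1 in 20. Values are protocol-adjusted log2 CPM unless named otherwise. In Npc1 cells, C1qc was low in replicate 5 (8.94, the others 9.24 to 9.36), Laptm4a was high in replicate 5 (10.86, the others 10.45 to 10.55) and Sgpp1 was high in replicate 4 (7.04, the others 6.84 to 6.86). In Rosa26 replicate 1, Fabp4 was high (5.47, the others 4.71 to 4.9), and Sars (5.54, the others 5.82 to 5.93) and Arhgef39 (1.8, the others 2.1 to 2.23) were low. Fdps was high in Rosa26 replicate 4 (3.53, the others 3.06 to 3.19). Ly6a was high in Rosa26 replicate 5 (3.95, the others 0.88 to 1.73), the library whose stromal markers summed to 306 CPM, against 22 to 89.4 CPM in the other Rosa26 libraries.

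The Npc1 effect differed between days 13 and 4 in 14 named genes by the test of the difference itself. The difference, day 13 minus day 4 on the log2 scale, was above 0, with adjusted p-values from edgeR, for Sqle (0.89, adjusted p = 0.0215), Cyp51 (0.88, adjusted p = 0.0489), Srebf2 (0.84, adjusted p = 0.0333), Fabp4 (1.54, adjusted p = 0.00557), Gla (0.58, adjusted p = 0.019), Slamf8 (1.22, adjusted p = 0.00181), Dusp2 (2.03, adjusted p = 0.019) and Dio2 (1.43, adjusted p = 0.0178). It was below 0, with adjusted p-values from edgeR, for Tgfbi (-1.55, adjusted p = 1.98e-07), F13a1 (-2.75, adjusted p = 4.32e-05), Mgl2 (-2.54, adjusted p = 0.000224), Fcrls (-1.5, adjusted p = 0.00172), Ly6a (-5.4, adjusted p = 0.00181) and Phlda3 (-0.91, adjusted p = 0.0429).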

How the results depend on the processing

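The number of called genes between Npc1 and Rosa26 cells of day 13 was 536, and it was 101 in Regular and 82 in Low-input libraries alone, 259 with only these 2 groups fitted and 318 to 636 with single libraries left out. Without Rosa26 replicates 2 and 5 it was 390, and the other settings gave 502 to 639 calls apart from the block below. At day 4, where 1 gene was called, DESeq2 called 3, the Regular libraries alone gave 2 and no filter on low counts gave 22. For the difference between days (24 calls), the counts were 10 in Regular libraries, 86 with no filter, 15 with no protocol term and 10 to 34 with single libraries left out. Against Pik3c3 cells the Regular libraries gave 245 calls, in place of 1604, and against Atp6v1a cells 771, in place of 2402, with 1490 for no protocol term. Fits of a single protocol hold fewer libraries, and the cause of these shifts was not tested.

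Within protocols C1qa was at -0.40 (Regular) and -0.48 (Low-input), and Sars at 0.37 and 0.52. With no protocol term C1qa turned to 0.0085 and Sars to -0.31. Without Rosa26 replicates 2 and 5, an alternative chosen after seeing the data, Col1a2 turned to 0.15. Of 94 named called genes, 61 kept their call in that fit, 69 with no protocol term, 32 in Regular and 15 in Low-input libraries.

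The replicate numbers are not said to mark shared pools. Deviations of same-numbered Npc1 and Rosa26 libraries correlated at -0.00511 to 0.231, and 3 of 5 matched best with their own number. With a replicate block 771 genes were called at day 13, 1 at day 4, 52 in the difference between days, 1901 against Pik3c3 and 2811 against Atp6v1a cells. Low-input libraries alone could not be used for the comparisons of day 4.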
